A study of Mus musculus with 4 samples.

Results

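The genes described here encode 3 small families of proteins that shorten the life of messenger RNAs: the ZFP36 zinc finger proteins (Zfp36, Zfp36l1 and Zfp36l2), the Regnase endonucleases (Zc3h12a, Zc3h12c and Zc3h12d) and the Roquin proteins (Rc3h1 and Rc3h2). These 8 genes were chosen by name, and all 8 had a probe set among the 22180 genes that the array annotation names by 1 symbol. They held 9 probe sets, of which the brightest of each gene was used, and all 8 were above the signal floor of 3.83 in all 4 arrays. Each of 4 groups was 1 array of B lymphocytes from C57BL/6 mice, sorted with an antibody to B220 from spleens, thymi and lymph nodes. The groups were Tilcara stimulated, Tilcara non-stimulated, wild type stimulated and wild type non-stimulated. Tilcara is labelled as a mutant of PKCbeta, a kinase that couples the B cell antigen receptor to NF-kB. The stimulated cells of either genotype had 4 hours with the phorbol ester PMA at 10 ng/mL and the calcium ionophore A23187 at 1 µM, which together stand in for signals downstream of the receptor. The labels state neither the number, age and sex of the mice behind each array nor how PKCbeta was altered.

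ZFP36 proteins bind AU-rich elements in the 3′ untranslated region of cytokine and growth gene transcripts and recruit the CCR4-NOT complex, which removes the poly(A) tail. Regnase proteins cut stem-loops in such regions with a nuclease domain, and Roquin proteins bind stem-loops with a domain of their own and recruit the same deadenylase. In lymphocytes these proteins hold back cytokine production and restrain growth, and the paracaspase MALT1, which acts below PKC in the antigen receptor pathway, cleaves Regnase-1 and the Roquin proteins. The arrays measured transcripts only and no protein.

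Each signal is a log2 value made by RMA, so that a difference of 1 is 2-fold. No group had a second array to show its spread, and a difference between 2 arrays is given without a test. The test used was limma's fit of stimulation and genotype over the 4 arrays, adjusted by the Benjamini-Hochberg method over 12456 genes above the floor in at least 1 array. It takes the genotypes as the 2 samples of each state, with 1 residual degree of freedom, and calls a gene at an adjusted p under 0.05. Rose and fell are used for those calls.

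With stimulation Zc3h12c was far higher and Zfp36l2 far lower in either genotype. All 3 ZFP36 genes read lower in both genotypes, while the Regnase and Roquin genes went in either direction. By limma, Zc3h12c and Rc3h1 rose, Zfp36, Zfp36l2 and Zc3h12a fell, and Zfp36l1, Zc3h12d and Rc3h2 were not called. The calls of Rc3h1 and Zc3h12a were lost under another filter. Thus 2 of 8 rose and 3 of 8 fell, beside 22% of all genes that rose and 22.8% that fell, which is no clear excess for so few genes. By size, Zc3h12c alone was at least 2-fold higher in the Tilcara comparison and Zfp36l2 alone at least 2-fold lower, beside 11.9% and 14.3% of all genes. In wild type Zc3h12c was at least 2-fold higher, and Zfp36l2 and Zc3h12d were at least 2-fold lower, beside 13.4% and 15.9% of all genes. The median response of the 8 genes was −0.02 in Tilcara and −0.51 in wild type, against 0.04 and 0.03 for all genes in the same order of genotypes. Cyclic loess between arrays lowered the response of each of the 8 genes, by up to 0.20 in Tilcara and 0.23 in wild type.

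**Figure D1:**
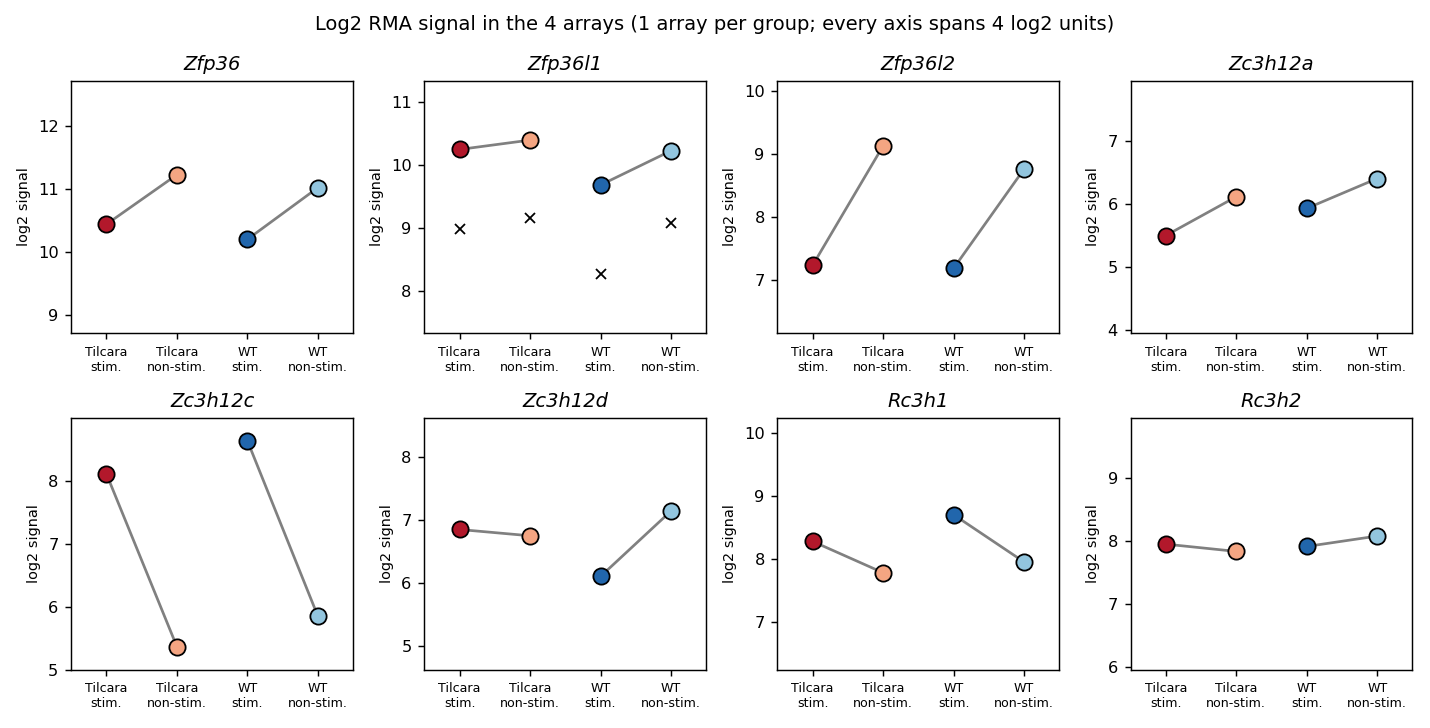
Log2 signal of each gene (vertical axis, spanning 4 log2 units in every panel) in the 4 arrays, with grey lines joining the arrays of one genotype and crosses for the second probe set of Zfp36l1. Zc3h12c was at 8.10 and 8.63 in the stimulated arrays and at 5.36 and 5.85 in the non-stimulated arrays, while Zfp36l2 was at 7.24 and 7.19 against 9.14 and 8.77 (Tilcara before wild type in each pair).

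Among the ZFP36 genes, Zfp36 (probe set 17488458) encodes tristetraprolin, the founding member, whose own transcript is known as an immediate-early gene of many cell types. It read 10.44 in stimulated Tilcara and 11.22 in non-stimulated Tilcara, and 10.20 in stimulated against 11.02 in non-stimulated wild type. Both stimulated arrays lay below both non-stimulated arrays, and the differences were nearly equal, at −0.79 in Tilcara and −0.82 in wild type. In limma's fit Zfp36 fell by 0.80 on the log2 scale (SE 0.15, adjusted p = 0.0134), a 1.75-fold lower signal. Across all genes 34.7% had a larger absolute response in Tilcara and 36.2% in wild type, so the fall was of ordinary size. Its promoter is shown because motifs of factors that respond to the same stimuli lie in it: capitals mark the EGR core (GGGGGCG), on the gene's strand 103 to 97 bases and on the other strand 73 to 67 bases before the start, and a CArG box, the site of serum response factor, 58 to 49 bases before it. The window is chr7:28379229-28379478 of GRCm38.p6, minus strand, from RefSeq.
Zfp36: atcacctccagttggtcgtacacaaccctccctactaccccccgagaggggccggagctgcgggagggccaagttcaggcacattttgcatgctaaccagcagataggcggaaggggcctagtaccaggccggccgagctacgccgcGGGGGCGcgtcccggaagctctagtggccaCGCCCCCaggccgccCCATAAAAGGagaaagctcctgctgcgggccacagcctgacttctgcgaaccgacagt
Across 32851 RefSeq windows of the same 250 bases before a gene start, 14.8% held the EGR core and 1.47% a CArG box on either strand, and no match in the Zfp36 window overlapped another. While Zfp36 fell, Egr1, Egr2 and Egr3, which encode factors that bind such cores, rose by 0.93, 3.63 and 1.93 (limma, log2, adjusted p = 0.0115, 0.00109 and 0.00429). A match describes these letters only.

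Zfp36l2 (probe set 17347680) encodes a paralog that, with ZFP36L1, is known to keep developing B cells quiescent. It read 7.24 in stimulated and 9.14 in non-stimulated Tilcara, and 7.19 in stimulated and 8.77 in non-stimulated wild type. The stimulated arrays were nearly alike and well below the non-stimulated ones, a 3.72-fold lower signal in Tilcara and a 2.98-fold lower one in wild type. Zfp36l2 fell by 1.74 (limma, log2, SE 0.16, adjusted p = 0.00265), and only 8.69% of all genes in Tilcara and 14.7% in wild type had a larger absolute response.

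Zfp36l1 (probe set 17282216), whose product is needed for marginal zone B cells in the mouse, read 10.25 in stimulated and 10.40 in non-stimulated Tilcara. In wild type it read 9.68 in stimulated and 10.23 in non-stimulated cells. The stimulated wild-type array was the lowest of the 4, and the other 3 lay within 0.17 of each other. The second probe set of Zfp36l1 (17276814) gave the same picture at a lower brightness, with 8.98 and 9.16 in stimulated and non-stimulated Tilcara and 8.27 and 9.08 in stimulated and non-stimulated wild type. Zfp36l1 was not called for stimulation (limma, log2 change −0.35, SE 0.17, adjusted p = 0.175). Its response was −0.15 in Tilcara and −0.54 in wild type, and −0.18 and −0.81 by the second probe set, a genotype difference that has no replicate to test it.

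Among the Regnase genes, Zc3h12c (probe set 17527016), which encodes Regnase-3, had the largest response of the 8. It read 8.10 in stimulated and 5.36 in non-stimulated Tilcara, and 8.63 in stimulated and 5.85 in non-stimulated wild type. The signal was 6.69-fold higher in Tilcara and 6.89-fold higher in wild type, and no stimulated value came near a non-stimulated one. Zc3h12c rose by 2.76 (limma, log2, SE 0.15, adjusted p = 0.00119), and 3.01% of all genes in Tilcara and 3.36% in wild type responded more strongly in absolute terms. RefSeq gives it 2 starts with a promoter window. The window of the upstream start is shown as that of the gene that moved most, chr9:52168407-52168656 of GRCm38.p6, minus strand; its capitals mark the only match found, an NFAT core (GGAAA) on the other strand 39 to 35 bases before the start.
Zc3h12c: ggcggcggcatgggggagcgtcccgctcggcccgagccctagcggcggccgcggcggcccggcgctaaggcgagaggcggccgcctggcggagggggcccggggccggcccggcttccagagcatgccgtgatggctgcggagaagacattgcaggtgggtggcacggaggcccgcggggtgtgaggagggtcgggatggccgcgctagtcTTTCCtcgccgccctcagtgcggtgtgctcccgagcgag
Neither Zc3h12c window held the AP-1 motif (TGANTCA), the EGR core, the NF-kB consensus, the cyclic AMP response element (TGACGTCA) or a CArG box, searched on both strands. The NF-kB consensus was in 3.9% of all windows and the cyclic AMP response element in 1.55%, and neither was found in any window of the 7 genes with one. The NFAT core is short and was found in 55.6% of all windows, so its presence singles out nothing.

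Zc3h12a (probe set 17429933) encodes Regnase-1, the best known of the family, which degrades transcripts of interleukin-6 and of its own gene. It read 5.49 in stimulated and 6.11 in non-stimulated Tilcara, and 5.92 in stimulated and 6.40 in non-stimulated wild type. The stimulated array was the lower one in either genotype, with differences of −0.62 and −0.47. Zc3h12a fell by 0.55 (limma, log2, SE 0.15, adjusted p = 0.0424), a call that was lost when genes of low signal were kept in the fit (adjusted p = 0.0686). Of all genes, 42.9% in Tilcara and 55.8% in wild type had a larger absolute response.

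Zc3h12d (probe set 17231591) encodes Regnase-4, described as a restraint on lymphocyte growth. It read 6.85 in stimulated and 6.75 in non-stimulated Tilcara, but 6.11 in stimulated and 7.14 in non-stimulated wild type. The Tilcara arrays were nearly level and lay between the wild-type arrays, of which the stimulated one was 2.05-fold lower than the non-stimulated one. The response was 0.10 in Tilcara and −1.04 in wild type, a difference of 1.14 between the responses, and 2.47% of all genes had a larger absolute difference. It was the only one of the 8 genes past 2-fold in this measure, beside 3.97% of all genes, and no replicate exists to test it. Zc3h12d was not called for stimulation (limma, log2 change −0.47, SE 0.31, adjusted p = 0.279). After cyclic loess between arrays the Tilcara response was −0.06, so its sign is not settled.

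**Figure D2:**
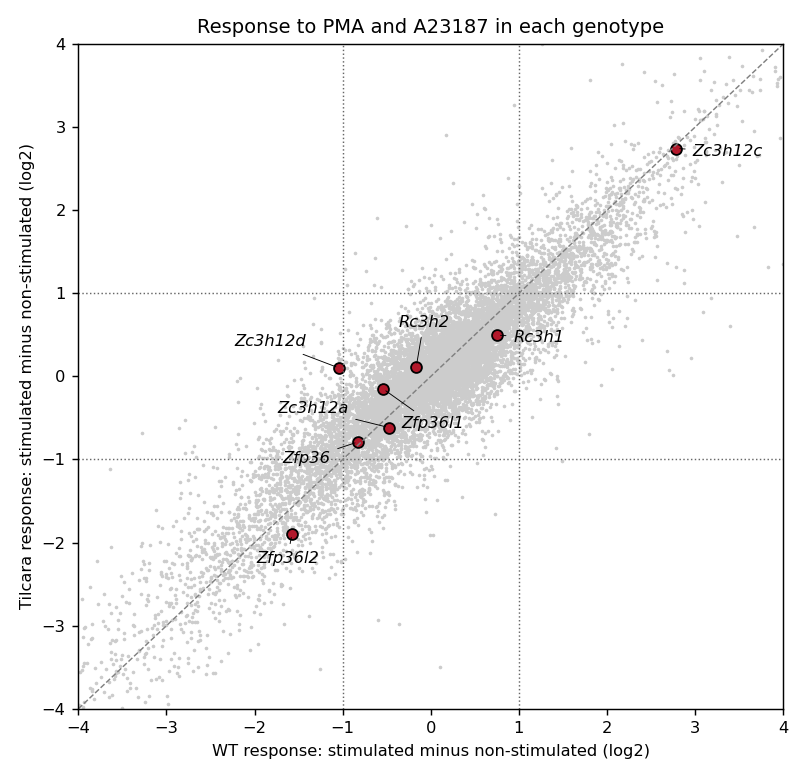
Stimulated minus non-stimulated log2 signal in Tilcara (vertical) against wild type (horizontal), with all genes in grey (110 of 12456 lie outside the axes), the 8 genes in red, equal responses on the dashed line and 2-fold differences on the dotted lines. Zc3h12c (2.74 in Tilcara and 2.78 in wild type) and Zfp36 (−0.79 and −0.82) lie on the dashed line, and Zc3h12d (0.10 and −1.04) lies off it.

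Among the Roquin genes, Rc3h1 (probe set 17218620), which encodes Roquin-1 and is mutated in the sanroque mouse with its excess of follicular helper T cells, read 8.28 in stimulated and 7.79 in non-stimulated Tilcara. In wild type it read 8.71 in stimulated and 7.96 in non-stimulated cells. Both stimulated arrays lay above both non-stimulated arrays, by 0.50 in Tilcara and 0.75 in wild type. Rc3h1 rose by 0.62 (limma, log2, SE 0.16, adjusted p = 0.0336). The call was lost after cyclic loess, where the change was 0.42 (adjusted p = 0.0907), and when genes of low signal were kept (adjusted p = 0.0543). Its promoter is shown because it held an AP-1 motif (TGANTCA, in capitals, 133 to 127 bases before the start), next to an NFAT core on the other strand 122 to 118 bases before it. PMA is known to activate AP-1 and the ionophore NFAT. The window is chr1:160906161-160906410 of GRCm38.p6, plus strand.
Rc3h1: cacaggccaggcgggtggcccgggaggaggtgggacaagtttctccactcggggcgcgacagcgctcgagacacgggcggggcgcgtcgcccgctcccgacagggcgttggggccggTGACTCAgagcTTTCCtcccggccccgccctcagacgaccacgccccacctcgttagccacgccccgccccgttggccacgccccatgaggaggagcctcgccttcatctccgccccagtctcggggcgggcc
The AP-1 motif was in 6.75% of all windows. Of the 7 genes with a RefSeq window, Zfp36l1, which was not called, also held it, along with 4 NFAT cores.

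Rc3h2 (probe set 17384587), the gene of the paralog Roquin-2, was the steadiest of the 8. It read 7.94 in stimulated and 7.83 in non-stimulated Tilcara, and 7.91 in stimulated and 8.07 in non-stimulated wild type. All 4 arrays lay within 0.24, the stimulated pair between the non-stimulated pair. Rc3h2 was not called (limma, log2 change −0.02, SE 0.16, adjusted p = 0.916).

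Between genotypes none of the 8 genes reached 2-fold in either state. Among all genes, 1.7% did so in stimulated cells and 1.08% in non-stimulated cells. In stimulated cells, Zc3h12d was 1.68-fold higher in Tilcara than in wild type and Zfp36l1 was 1.48-fold higher, while Zc3h12c was 1.44-fold, Zc3h12a 1.35-fold and Rc3h1 1.34-fold lower. Zfp36 differed by 0.24, and Zfp36l2 and Rc3h2 by 0.05 and 0.04. Of all genes, 4.39% differed more than Zc3h12d and 9.01% more than Zfp36l1 in stimulated cells. The median absolute genotype difference of the 8 genes in stimulated cells was 0.43, against 0.18 for all genes. In non-stimulated cells it was 0.27, against 0.18 for all genes.

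In non-stimulated cells all 3 ZFP36 genes read higher in Tilcara than in wild type, by 0.37 for Zfp36l2, 0.21 for Zfp36 and 0.17 for Zfp36l1. The 5 Regnase and Roquin genes read lower, by 0.48 for Zc3h12c, 0.39 for Zc3h12d, 0.29 for Zc3h12a, 0.24 for Rc3h2 and 0.17 for Rc3h1 on the log2 scale. Each of these differences is smaller than the 0.64 that 95% of all genes stayed within. The comparisons between genotypes use the same arrays as the responses and are not separate evidence. For genotype over both states limma called 0 of 12456 genes, a share of 0%. The error of this fit comes from the difference between the responses, so a gene that differed in a single state could hardly be called. An unadjusted p under 0.05 was found for 667, close to the share that this threshold gives with no genotype effect, a count under the same limit. Of the 8 genes Zc3h12c alone was among those, at a log2 change of −0.51 (limma, SE 0.15, unadjusted p = 0.0217, adjusted p = 0.866); it was lower in Tilcara in both states.

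**Figure D3:**
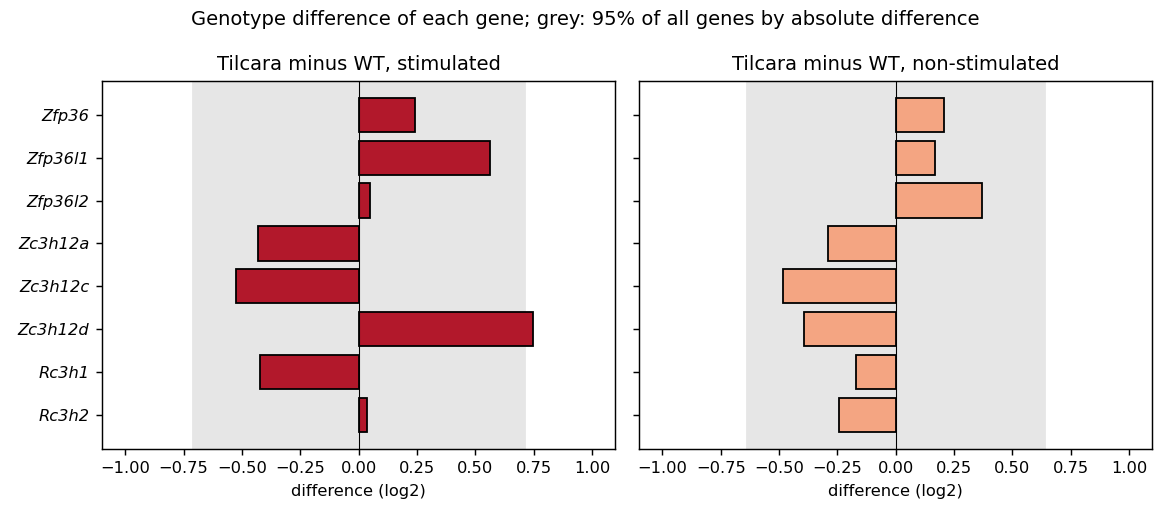
Tilcara minus wild-type log2 signal of each gene in stimulated cells (left) and non-stimulated cells (right), as bars from 0; the grey band holds 95% of all genes by absolute difference. Zc3h12d in stimulated cells, at 0.75, is the only bar that leaves the band, whose limit there is 0.71.

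The genes were not alike in their pattern over the 4 arrays, as the Euclidean distance between profiles centred on their own means shows. The closest pair among the 8 was Zfp36l1 and Zc3h12d, at a distance of 0.44. Both were lowest in stimulated wild type, as were Zfp36 and Zfp36l2. The farthest was Zfp36l2 and Zc3h12c, at 4.56. Among 11169 other genes, those most like Zc3h12c were Cdk6, for a cell cycle kinase, Hk2, for hexokinase 2, and Iars, for a cytosolic isoleucyl-tRNA synthetase, at distances of 0.22 to 0.25. Those most like Zfp36l2 were Osgepl1, Gltp and Antkmt, at 0.04 to 0.07. Those most like Zfp36 were Whrn, Hmox2 and Chek2, at 0.05 each. Those most like Zfp36l1 were Haus1, Hace1 and Nin, at 0.02 to 0.06, and those most like Zc3h12d were Atp6v0a1, F2rl2 and Tmem106a, at 0.10 to 0.13. For Zc3h12a they were Fam53b, Cc2d2b and Terf2ip, for Rc3h1 Slc34a1, Axl and Mpp5, and for Rc3h2 Gtse1, Palm3 and Fbxl7. Of the genes named as most alike, Cc2d2b, Slc34a1, Axl, F2rl2 and Tmem106a were below the signal floor in some arrays. Gtse1 and Fbxl7 lay close above it, as did Hk2 in non-stimulated Tilcara, at 3.88, so all of these matches are approximate. With 4 arrays and 1 strong contrast, many genes share any such pattern.

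Genes of the machinery that degrades the targets are given by branch, and their counts stand beside 22% of all genes that rose and 22.8% that fell. Of the 13 measured genes of RNA exosome and cofactors, which degrade RNA from the 3′ end, 9 rose and 0 fell (limma), with a median response of 0.88 in Tilcara and 1.06 in wild type, against 0.04 and 0.03 for all genes. Dis3, the catalytic nuclease, rose by 2.18, Exosc2 by 1.78, Exosc1 by 1.55 and Ttc37, of the SKI complex, by 1.34. Of 13 genes of deadenylase complexes, with Tob1 and Tob2 counted among them, 1 rose and 4 fell. Their median was −0.03 in both genotypes, and −0.23 in Tilcara and −0.15 in wild type after cyclic loess. Pan2 and Pan3, which encode the deadenylase that acts before CCR4-NOT, fell by 1.37 and 0.67, and the deadenylase gene Parn fell by 0.87. Cnot11 of the CCR4-NOT complex rose by 0.74, and the other 7 measured subunits were not called. Of 11 genes of decapping and decay from the 5′ end, 3 rose and 3 fell, with a median of 0.13 in Tilcara and 0.16 in wild type, and of 0.0056 and 0.0073 after cyclic loess. Lsm1 rose by 1.06 and Upf1, the helicase that works with Regnase-1, by 0.76, while the exonuclease gene Xrn1 fell by 1.01 and the helicase gene Ddx6 by 0.79.

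Other binders of AU-rich elements went in either direction, with a median of 0.19 in Tilcara and 0.34 in wild type. After cyclic loess these were −0.015 in Tilcara and 0.13 in wild type, so the sign in Tilcara is not settled. Of 6 genes, Elavl1, for the stabilising protein HuR, rose by 0.95, and Khsrp, for a decay-promoting protein, rose by 0.67 (limma, adjusted p = 0.00861 and 0.0289). Tia1, for a translational silencer, fell by 0.88, and Hnrnpd was not called, at a change of 0.36. Of the relatives, N4bp1, an RNase gene related to the Regnases, rose by 0.86 and Khnyn fell by 1.29, while Zc3h12b and Zfp36l3 were below the floor in all 4 arrays.

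The genes whose products act on these proteins are known mostly as kinases and the paracaspase. Of 11 measured, 2 rose and 5 fell, with a median of −0.32 in Tilcara and 0.01 in wild type, and of −0.53 and −0.19 after cyclic loess. Within the p38 pathway, whose kinase MK2 phosphorylates and restrains tristetraprolin, Map2k3 rose by 2.69 and Mapkapk3 by 1.77, while Mapk14 fell by 2.31, Mapk11 fell by 2.32 and Map2k6 fell by 2.14. The sizes for Map2k6, at 2.66 in stimulated Tilcara and 2.68 in stimulated wild type, and for Mapk14, at 3.36 in stimulated wild type, are approximate, as these signals lay below the floor. Mapkapk2, which encodes MK2, was not called, at −0.16. Malt1 and Bcl10 were not called, at 0.32 and 0.27. Btrc, for the ubiquitin ligase subunit that marks Regnase-1 for degradation, fell by 1.75, and the kinase gene Ikbkb by 1.12.

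Of the transcripts described as targets of these proteins, several were lower in stimulated Tilcara than in stimulated wild type. Of 14 measured ZFP36 targets 7 rose and 5 fell, with a median response of 0.77 in Tilcara and 1.21 in wild type, and 6 others were below the floor, among them Il6 and Csf2. With those 6 included the medians were 0.24 in Tilcara and 0.48 in wild type. Of 11 measured targets of Regnase or Roquin proteins 9 rose and 0 fell, with a median of 0.96 in Tilcara and 1.36 in wild type. With the 5 genes below the floor included these medians were 0.50 in Tilcara and 1.00 in wild type. The median difference between Tilcara and wild type in stimulated cells was −0.74 for this list, and −0.22 with those 5 genes. The 11 genes behind the −0.74, and the 9 that rose, include Ctla4, which passed the filter only through stimulated wild type. The −0.74 therefore rests in part on a gene kept because it was high there. Most transcripts of both lists are cytokine and activation genes that the stimulus is known to induce, and the lists overlap. Tnf read 8.72 in stimulated and 7.43 in non-stimulated Tilcara, and 10.18 in stimulated and 7.31 in non-stimulated wild type. The non-stimulated arrays were alike, and the stimulated signal was 2.76-fold lower in Tilcara than in wild type. Nfkbiz, a target of both Regnase-1 and Roquin, read 7.19 in stimulated and 6.63 in non-stimulated Tilcara, and 8.01 in stimulated and 6.64 in non-stimulated wild type. Nfkbid read 7.90 in stimulated and 7.45 in non-stimulated Tilcara, and 8.64 in stimulated and 7.38 in non-stimulated wild type. In stimulated cells, 4 of the 14 ZFP36 targets (Il2, Il10, Tnf and Cxcl2) were at least 2-fold lower in Tilcara, beside 0.747% of all genes; Il2, Tnf and Cxcl2 also stand in the list of Regnase or Roquin targets. No gene of either list was at least 2-fold higher, and none was called for genotype by limma. Cxcl2 was dim, at 4.18 in stimulated Tilcara and 5.23 in stimulated wild type. Ctla4 read 3.32 in stimulated Tilcara and 4.54 in stimulated wild type, the only array in which it reached the floor, so its difference is no support for a lower Tilcara signal. Other targets were nearly level between genotypes after stimulation, with differences of −0.05 for Tfrc, −0.10 for Il2ra, −0.15 for Ccl3 and 0.01 for Rel.

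Targets described for ZFP36L1 or ZFP36L2 in lymphocytes went both ways. Irf8, a B lineage factor, rose by 1.23 and Notch1 by 1.43, and Klf2, a quiescence and homing factor, fell by 3.36 (limma, adjusted p = 0.00485, 0.00318 and 0.00109). The survival gene Bcl2, a target described in human cells, fell by 3.07. The cyclin gene Ccnd3 fell by 0.73, with responses of −0.43 in Tilcara and −1.04 in wild type.

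**Figure D4:**
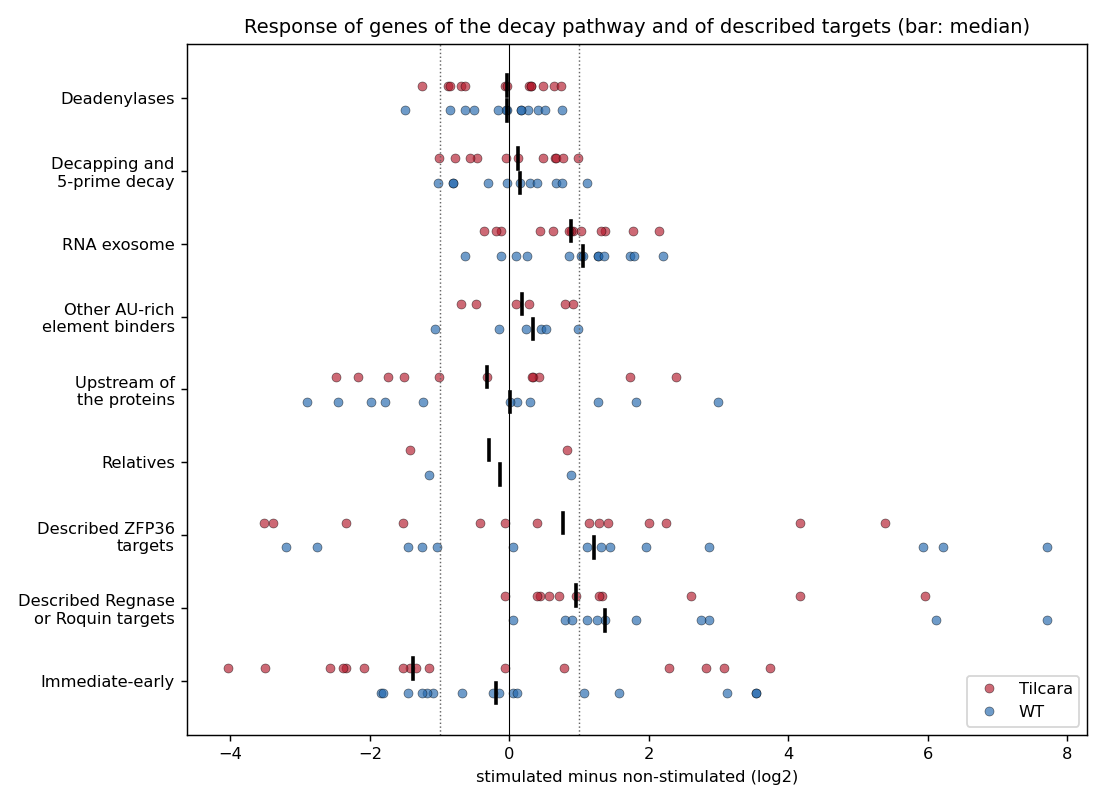
Stimulated minus non-stimulated log2 signal (horizontal) of the measured genes of each list, with Tilcara in red above wild type in blue, black bars at the medians and dotted lines at 2-fold. The exosome genes sit mostly to the right (medians 0.88 in Tilcara and 1.06 in wild type). Genes of deadenylase complexes have a median of −0.03 in both (−0.23 in Tilcara and −0.15 in wild type after cyclic loess).

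Immediate-early genes are given beside Zfp36, which belongs to the same class. Of 16 measured, 5 rose and 6 fell, with a median of −1.38 in Tilcara and −0.19 in wild type, and of −1.58 and −0.36 after cyclic loess. Fos fell by 1.90, Jun by 1.30, Dusp1 by 1.39 and Btg2 by 1.95, while Nr4a1 rose by 2.97 and Atf3 by 3.30. Fos read 7.05 in non-stimulated Tilcara and 6.29 in non-stimulated wild type, and the heat shock genes Hspa1a and Hspa1b were 1.81 and 1.56 higher there in Tilcara, but 1.79 and 1.80 lower in Tilcara after stimulation. Zfp36, Fos, Fosb, Jun, Junb, Jund, Ier2, Dusp1, Btg2, Hspa1a and Hspa1b were each highest in the non-stimulated Tilcara array. So were Zfp36l1 and Zfp36l2, whereas Egr1, Egr2, Egr3, Ier3, Nr4a1 and Atf3 were highest in a stimulated array. None of these genes was called for genotype by limma.

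Markers bear on whose transcripts these are. The 6 measured B cell markers lay between 8.94 and 11.39 in the non-stimulated arrays, and all 6 fell with stimulation. In stimulated cells Cd79b read 8.57 in Tilcara and 6.96 in wild type, a 3.05-fold higher signal in Tilcara. Cd79a and Ptprc read 0.81 and 0.63 higher there in Tilcara, Pax5 read 0.27 lower, and Ms4a1 and Cd22 were nearly level. The summed signal of 10 neutrophil markers was 6.09 in stimulated and 6.49 in non-stimulated Tilcara, and 6.26 in stimulated and 9.66 in non-stimulated wild type, and S100a8 was the brightest of them in that last array. The summed signal of 7 T cell markers was 6.14, 6.38, 6.45 and 7.29 in the same order of arrays, and that of 6 macrophage markers 7.77, 6.87, 7.52 and 7.70. Cd68 was the brightest macrophage marker in every array, at 7.44, 6.05, 7.08 and 6.33, and rose with stimulation. Lyz2 (2.52, 3.43, 3.28 and 5.99) and Adgre1 (2.84, 3.79, 2.87 and 4.70) were highest in non-stimulated wild type. So were Cd14 and Fcgr1 at lower signals, while Csf1r was highest in stimulated Tilcara, at 3.94. The summed signal of 5 NK cell markers was 6.52, 7.70, 6.60 and 7.49, and that of 4 dendritic cell markers 5.35, 6.04, 5.53 and 6.09. In non-stimulated wild type 4 of 10 neutrophil markers and 6 of 7 T cell markers were at or above the floor, against 1 of 10 and 1 of 7 in non-stimulated Tilcara. S100a8, S100a9, Lyz2, Thy1, Cd3g, Retnlg and Camp were at least 2-fold lower in non-stimulated Tilcara than in non-stimulated wild type, the last 2 below the floor in every array. Neutrophils and macrophages are known to express Zfp36 and Zc3h12a strongly. In non-stimulated cells Zfp36 read 11.22 in Tilcara and 11.02 in wild type. Zc3h12a, at 6.40, Zc3h12d, at 7.14, and Rc3h2, at 8.07, were highest in the non-stimulated wild-type array. The part of such cells in these values was not tested. In sorted bulk samples, fewer cells of a type and less RNA per cell cannot be told apart.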

How the data were processed

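The deposited values were log2 signals, 41345 probe sets on each of 4 arrays, made by the authors with RMA, per the submitters' processing notes (version, settings and genome build: not given in the sources used here). RMA normalizes quantiles, so a change in total RNA per cell cannot be seen. Array medians lay between 3.73 and 3.79. By the platform annotation, 1 symbol was given to 23521 probe sets, several to 1814 and none to 16010, and the gene IDs of 23328 were in RefSeq, with no symbol changed. The brightest probe set stood for a gene. The floor was the median of all named values, 3.83, and 12456 genes reached it in at least 1 array. Differences were taken between arrays, and limma 3.58.1 (R 4.3.3) fitted stimulation plus genotype. The fit was first run on simulated data in which both genotypes responded alike. That run checked the estimated changes and not the calls in these data. The number of arrays limits the precision, and p-values measure only how alike the 2 genotypes (or states) were. Promoter windows were the 250 bases before RefSeq starts (GRCm38.p6). In each list up to 4 genes of largest response, and any past 2-fold between genotypes, were to be named; any others were picked with their values in view. The genes and lists were chosen with earlier results of these data known. List genes without a single-symbol probe set were not analysed here. Alternatives were centring on array medians, cyclic loess, the mean over probe sets, no signal filter and a 1.5-fold threshold.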

Additional observations from a re-analysis of the deposited data

Results flagged for a closer look

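The responses of Zc3h12d and Rc3h2 ran in opposite directions in the genotypes. For Zc3h12d the response was 0.10 in Tilcara and −1.04 in wild type, so the Tilcara response minus the wild-type response was 1.14. For Rc3h2 it was 0.12 in Tilcara and −0.17 in wild type, a difference of 0.28. Neither difference was tested, as each rests on 4 single arrays. After cyclic loess the Tilcara responses were −0.06 for Zc3h12d and −0.09 for Rc3h2, and the directions were then the same in both genotypes.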

How the results depend on the processing

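Of 224 recomputed values of the 8 genes (56 results under 4 settings), 216 kept their direction and their side of the threshold, and no value past 2-fold or called by limma changed sign. Part of this tally was fixed beforehand. Leaving out the filter could change limma's p-values but no difference of these genes, and the mean over probe sets could change the differences of Zfp36l1 alone. After cyclic loess Zfp36 in wild type passed 2-fold, at −1.05, and Rc3h1 lost its call for stimulation (0.42, limma adjusted p = 0.0907). With no filter on low signals, limma's calls for stimulation were lost for Zc3h12a (−0.55, adjusted p = 0.0686) and Rc3h1 (0.62, adjusted p = 0.0543); more genes were then tested. Values near 0 changed sign after cyclic loess: the Tilcara responses of Zc3h12d (−0.0586) and Rc3h2 (−0.0888), and the genotype difference of Rc3h2 in stimulated cells (−0.0033). Centring on array medians gave −0.0103 for the difference between the responses of Zfp36. The medians of lists moved with cyclic loess or without the filter, as given beside them; that of other binders of AU-rich elements in Tilcara turned to −0.015. No scaling moved the median of all genes by over 0.1. The responses of the 8 genes moved more, as cyclic loess lowered all of them, by up to 0.23 in wild type and 0.20 in Tilcara. Zfp36l1 then came close to a call for stimulation (−0.56, limma adjusted p = 0.0505). With no filter, 331 genes had a Tilcara response at least 2-fold below the wild-type response, against 206. At 1.5-fold, 2766 genes were higher and 2834 lower with stimulation in Tilcara, and 2951 and 3083 in wild type. At 1.5-fold, 584 genes were higher and 455 lower in stimulated Tilcara than in stimulated wild type, 413 and 422 in non-stimulated Tilcara than in non-stimulated wild type, and the difference between responses had 1091 higher and 1003 lower. No paired analysis was possible because each group was 1 array, and no array could be left out. Signals near the floor of 3.83 limit the folds of Ctla4, Cxcl2, Map2k6 and Mapk14. They also limit several of the matches between profiles.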
